A study of Mus musculus with 6 samples.

Results

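The 10 genes Ms4a2, Fcer1a, Fcer1g, Cpa3, Mcpt8, Hdc, Cma1, Tpsb2, Tpsab1 and Mcpt4, which serve as identity genes of mast cells and basophils, were followed across 6 Affymetrix mouse arrays. All 10 had a probe set annotated to that gene alone, 13 probe sets of the 45037 on the array that were not controls, and 10 genes of 18193. The genes were chosen by function, namely chains of the high-affinity IgE receptor, granule proteases and the histamine enzyme, but with the DKO against WT differences of a wider mast cell, basophil and eosinophil list from these same arrays already known. The differences of the 10 genes between the groups are therefore a description and no test of anything. The RNA came from bone marrow cells sorted for the absence of lineage markers and the presence of Sca1, a surface protein of haematopoietic stem and early progenitor cells. Of the RNA, 3 pools came from mice lacking both nuclear receptor genes Nr4a1 and Nr4a3 (DKO, on a mixed background of C57BL/6 and 129SvJ), and 3 pools came from wild-type mice (WT, strain not labelled). No mouse was treated, all were 2 to 3 weeks old, and each pool held 10 to 20 mice, so arrays of a group differ as pools of animals do. Both deletions were inherited and not restricted to blood cells, as far as the labels say.

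Mast cells and basophils both carry the high-affinity IgE receptor, whose alpha chain binds IgE and whose beta and gamma chains pass the signal into the cell. When allergen crosslinks the bound IgE, both release histamine, which is made by histidine decarboxylase, together with stored granule proteases. Their granules differ in mice: Mcpt8 marks basophils, chymases and tryptases such as Cma1, Mcpt4, Tpsb2 and Tpsab1 mark mast cells of connective tissue, and Mcpt1 and Mcpt2 mark mast cells of mucosa. Basophils mature in bone marrow, while mast cells finish their maturation in tissues.

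Signals are the authors' MAS5 values, a linear brightness per probe set with each array scaled to a trimmed mean of 500. Differences are DKO minus WT of log2(signal + 16), with the standard error (SE) of a limma fit over all probe sets, and they understate changes of dim genes. A call means an adjusted p under 0.05 in that fit. Counts at an unadjusted p under 0.05 come with no share over all genes, so they cannot be read as many or few. Nr4a1 checked the labels, at 21.4 ± 12.9 in DKO against 1065 ± 230 in WT (SD, n = 3 each; -4.89 ± 0.42, limma, adjusted p = 1.95e-04). The 3 probe sets of Nr4a3 lay below the filter on low values and were not tested. The brightest gave 60.9, 59.4 and 21.2 in DKO and 63.7, 44.3 and 50.8 in WT, and overlapped (-0.19 ± 0.51). The second gave 25.9, 6.9 and 24.6 in DKO and 128.7, 145.4 and 22.6 in WT, overlapping through WT replicate 3 (-1.51 ± 0.63). The third gave 20.9, 4.0 and 0.6 in DKO and 40.4, 61.8 and 51.5 in WT, without overlap (-1.53 ± 0.44). Whether any of them lies in the deleted part is not stated. Median signals per array lay between 91.6 and 122.5. WT replicate 2 stood apart from the other WT arrays in markers of other blood cells, as given below beside the results it touches. Of 27022 probe sets tested, 370 were called (1.37%). By gene, with the brightest probe set standing for each, 1.08% of 11529 tested genes were called higher in DKO and 0.633% lower.

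The basophil-type genes had a larger median difference than the connective tissue proteases, though all 10 genes had positive differences. Of the 6 basophil-type members (Ms4a2, Fcer1a, Fcer1g, Cpa3, Mcpt8 and Hdc), 5 were called higher in DKO, and the exception was Fcer1g. Of the 4 connective tissue proteases (Cma1, Tpsb2, Tpsab1 and Mcpt4), only Cma1 and Tpsb2 passed the filter and could be called. Of these 2, 0 were called by limma. Tpsb2 passed the filter only through its DKO signals and was not tested without DKO replicate 2. In simulated data the fit called 6% of probe sets changed by 1 on the log2 scale. The 0 calls therefore do not show that the proteases were unchanged. Over all 4, 0 had an unadjusted p under 0.05 at the brightest probe set. The same 5 members were those whose DKO arrays all lay above all WT arrays, which held for 9.15% of all genes without a filter. The median difference was 3.30 over the basophil-type members and 0.52 over the proteases, a gap of 2.77, with values from 2.40 to 3.13 when any 1 array was dropped. Since the members were chosen with these differences known, neither the counts nor the gap says more than the values themselves. The filter on low values, which dropped probe sets with a mean below a signal of about 53.2, was passed by 8 of the 10 genes and 10 of the 13 probe sets. Tpsab1, Mcpt4 and the dimmer probe set of Tpsb2 did not pass it. Each array measured a mixed pool of cells, in which more cells of a type and more RNA per cell cannot be told apart.

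**Figure D1:**
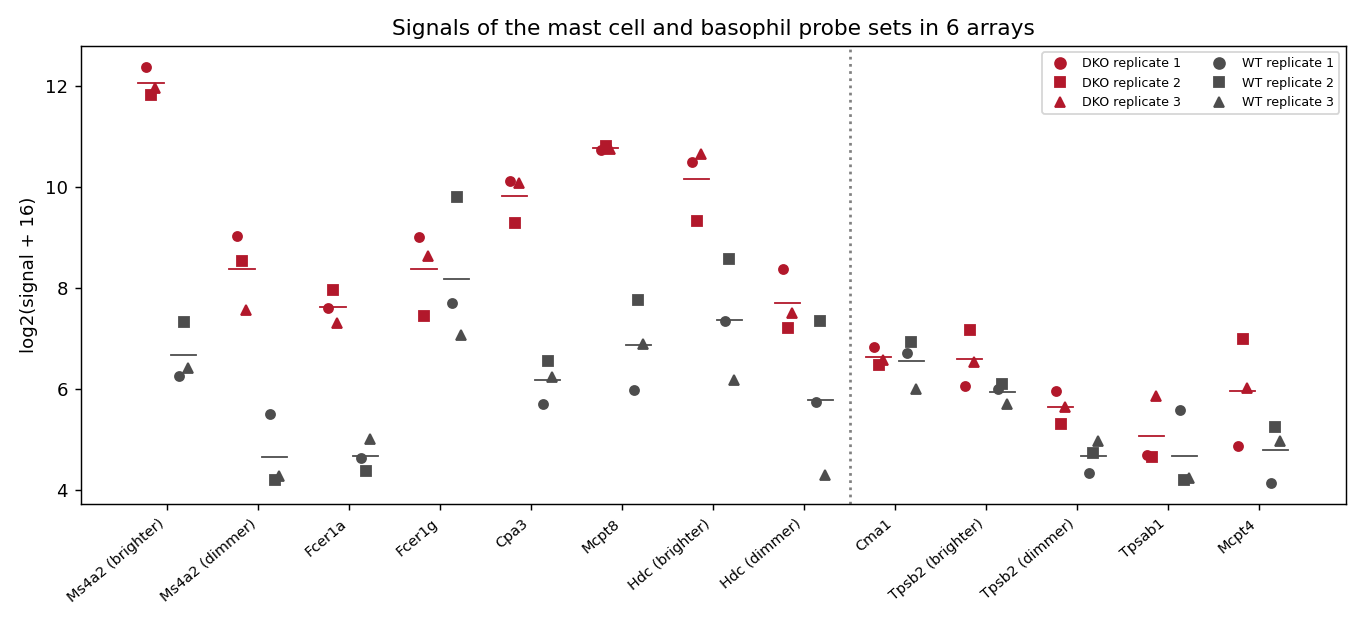
Signals of the 13 probe sets of the 10 genes on a log2(signal + 16) axis, with 1 point per array, DKO left of WT for each probe set, and a line at each group mean. The dotted line separates basophil-type genes from connective tissue mast cell proteases. The DKO points of Ms4a2, Fcer1a, Cpa3 and Mcpt8 lie clear above the WT points, while those of Fcer1g and the brightest probe sets of the 4 proteases overlap.

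Among the IgE receptor chains, the beta chain gene Ms4a2 had the largest difference of the 10 genes. Its brighter probe set gave 5307, 3609 and 3974 in DKO replicates 1 to 3, against 60.6, 145.9 and 69.6 in WT replicates 1 to 3. Every DKO array was far above every WT array, and the difference was 5.38 ± 0.33. The second Ms4a2 probe set gave 510.7, 355.7 and 172.8 in DKO and 29.8, 2.5 and 3.4 in WT. It separated the groups in the same direction, by 3.71 ± 0.55, with WT signals at the low end of the array's range. This probe set passed the filter only through its DKO signals. The alpha chain gene Fcer1a, which encodes the part that binds IgE, gave 178.8, 231.9 and 143.4 in DKO and 9.0, 4.9 and 16.6 in WT (2.94 ± 0.46). It passed the filter only through its DKO signals, and with a DKO array left out it was no longer tested. The deposited table holds no detection calls, so whether these WT signals stand above background was not tested.

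The gamma chain gene Fcer1g went its own way. This chain is shared with other Fc receptors and is made by many myeloid and natural killer cells. Its signals were 502.2, 159.7 and 382.5 in DKO and 192.4, 872.8 and 118.2 in WT. WT replicate 2 was the highest of all 6 arrays and the groups overlapped, with a difference of 0.18 ± 0.64. Without WT replicate 2 the difference was 0.99, and it turned to -0.38 without WT replicate 3. The 7 neutrophil markers with a probe set (of 8 listed) moved with this array: their summed signal was 29022 to 50997 in DKO, and in WT 82089 in replicate 2 against 36483 and 17202 in replicates 1 and 3, with no marker at 0. Their part in the Fcer1g values was not tested. Other receptors that use the gamma chain gave no call among the 3 that could be tested of 9 listed, with 2 at an unadjusted p under 0.05. Fcgr3, a low-affinity IgG receptor, averaged 1029 ± 315 in DKO and 503 ± 500 in WT (1.39 ± 0.54, adjusted p = 0.259), with WT replicate 2 again the highest WT array at 1080. Without WT replicate 2, Fcgr3 was called, at 2.14 (limma, adjusted p = 0.0102). Ncr1, a receptor of natural killer cells, averaged 164.1 ± 72.4 in DKO and 27.4 ± 22.2 in WT (2.14 ± 0.56, adjusted p = 0.0979). Ncr1 passed the filter only through its DKO signals.

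The promoter windows of both called receptor chains are shown because they hold a GATA-type motif, the kind bound by the transcription factors GATA1 and GATA2 of this lineage. Promoters are from RefSeq (GRCm38.p6), 250 bases before the start of the gene and 50 from it, and 8 of the 10 genes matched (not Tpsb2 and Tpsab1). Both strands were searched for 4 motifs, which are AGATAA, a second GATA-type motif and the site of NR4A monomers, both spelled out in the next paragraph, and the E-box CAGCTG. No matches overlapped. Capitals mark the matches, and those on the opposite strand show as their reverse complement. Positions count the start as 0. Ms4a2 (chr19:11623670-11623969, minus strand) held AGATAA 3 times, at -11 on its own strand and at -224 and -37 on the opposite one. Fcer1a (chr1:173227180-173227479, minus strand) held it at -92 on the opposite strand and CAGCTG at -158.
Ms4a2: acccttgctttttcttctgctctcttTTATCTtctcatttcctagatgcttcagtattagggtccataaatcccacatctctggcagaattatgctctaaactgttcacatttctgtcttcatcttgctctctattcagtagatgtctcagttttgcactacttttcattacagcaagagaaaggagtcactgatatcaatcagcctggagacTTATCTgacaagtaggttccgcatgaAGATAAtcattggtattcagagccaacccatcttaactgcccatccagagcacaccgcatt
Fcer1a: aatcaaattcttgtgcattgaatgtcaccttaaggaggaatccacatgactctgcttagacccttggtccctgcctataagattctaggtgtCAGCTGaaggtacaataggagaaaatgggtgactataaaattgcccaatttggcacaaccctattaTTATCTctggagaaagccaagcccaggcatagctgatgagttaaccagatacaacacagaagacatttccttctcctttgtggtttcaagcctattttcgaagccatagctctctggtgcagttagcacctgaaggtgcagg

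Of the 8 member promoters 3 held AGATAA (Ms4a2, Fcer1a and Cpa3), as did 11.2% of all 32851 promoters of that length. CAGCTG was in 3 (Fcer1a, Fcer1g and Cpa3), against 16.3% of all promoters. TGATAA, the second GATA-type motif, was in 1, Mcpt4, against 9.05%. AAAGGTCA, which NR4A monomers bind, was in 0 of the 8 and in 1.51% of all promoters. These are matches of letters in a short window and no evidence of binding.

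The 3 granule genes of the basophil-type set were all called higher. Mcpt8, the protease that marks mouse basophils, gave 1680, 1780 and 1712 in DKO, against 47.5, 202.0 and 103.2 in WT. The DKO pools lay close together, at 1724 ± 51, while the WT pools varied more on the log scale, and the groups were separate (3.88 ± 0.41). Cpa3, a carboxypeptidase stored by mast cells and basophils and also made by their progenitors, gave 1098.9, 608.3 and 1063.7 in DKO and 36.6, 78.4 and 60.0 in WT. DKO replicate 2 was the lowest DKO array and still well above the WT arrays (3.65 ± 0.40). Hdc, which makes histamine from histidine, gave 1431, 628.8 and 1604 in DKO and 146.1, 367.7 and 56.4 in WT at its brighter probe set (2.80 ± 0.55). The groups did not overlap there, but DKO replicate 2 was less than 2-fold above WT replicate 2. The dimmer Hdc probe set, at 318.0, 132.0 and 165.2 in DKO and 37.5, 146.1 and 3.7 in WT, did overlap and was not called (1.90 ± 0.69). Both Hdc probe sets carry a suffix by which Affymetrix marks probes that can match several transcripts.

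With an array left out, Ms4a2, Cpa3 and Mcpt8 stayed called in 6 of 6 cases, Fcer1a in 3 and Hdc in 2. Hdc stayed called without DKO replicate 2 and without WT replicate 2, and it lost the call without DKO replicate 1, DKO replicate 3, WT replicate 1 or WT replicate 3. The counts of called members were 3 without DKO replicate 1 or DKO replicate 3 and 5 without WT replicate 2. Cpa3 and Mcpt8 are shown as a pair because their windows differ while both genes were high in DKO. Cpa3 (chr3:20242132-20242431, minus strand) held AGATAA at -46 and CAGCTG at -59. Mcpt8 (chr14:56085148-56085447, minus strand) held none of the 4 motifs.
Cpa3: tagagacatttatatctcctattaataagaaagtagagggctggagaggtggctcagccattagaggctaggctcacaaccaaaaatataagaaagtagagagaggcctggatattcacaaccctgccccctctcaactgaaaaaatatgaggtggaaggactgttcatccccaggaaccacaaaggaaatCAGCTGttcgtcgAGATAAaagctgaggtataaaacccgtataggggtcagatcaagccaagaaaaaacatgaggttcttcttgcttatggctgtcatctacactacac
Mcpt8: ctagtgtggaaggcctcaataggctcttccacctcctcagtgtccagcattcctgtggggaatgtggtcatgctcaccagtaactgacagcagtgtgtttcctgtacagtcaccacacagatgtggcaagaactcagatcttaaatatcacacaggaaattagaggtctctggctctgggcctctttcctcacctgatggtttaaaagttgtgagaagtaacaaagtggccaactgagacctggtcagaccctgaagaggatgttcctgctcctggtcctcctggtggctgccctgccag

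The connective tissue proteases were dim in both groups. Cma1, a chymase of connective tissue mast cells, gave 98.7, 73.1 and 79.7 in DKO and 89.8, 106.0 and 48.5 in WT. The DKO range lay within the WT range, and the difference was 0.08 ± 0.45. The tryptase Tpsb2 gave 50.6, 127.9 and 77.6 in DKO and 48.2, 52.6 and 36.5 in WT at its brighter probe set (0.65 ± 0.47), with DKO replicate 1 below WT replicate 2. Its dimmer probe set gave 46.9, 23.6 and 34.0 in DKO and 4.2, 10.8 and 15.4 in WT. These signals did not overlap, by 0.96 ± 0.39, but they were below the filter and so outside the test. Without the filter, limma gave this probe set an unadjusted p of 0.0310 (adjusted p = 0.387). The related tryptase Tpsab1 gave 10.1, 9.2 and 42.2 in DKO and 32.2, 2.5 and 2.9 in WT (0.39 ± 0.47), with each group holding 1 array above the rest. Mcpt4, a chymase of connective tissue mast cells, gave 13.6, 111.0 and 49.5 in DKO and 1.7, 22.1 and 15.5 in WT. DKO replicate 1 lay below 2 of the WT arrays, so that the groups overlapped (1.18 ± 0.57). Tryptase genes are close relatives, and whether their probes bind each other's transcripts was not tested.

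The promoters of both chymases are shown beside that of Mcpt8, since the 3 genes belong to the same chromosomal cluster. Mcpt4 (chr14:56062261-56062560, minus strand) held TGATAA at -103. Cma1 (chr14:55944626-55944925, minus strand) held none of the 4 motifs.
Mcpt4: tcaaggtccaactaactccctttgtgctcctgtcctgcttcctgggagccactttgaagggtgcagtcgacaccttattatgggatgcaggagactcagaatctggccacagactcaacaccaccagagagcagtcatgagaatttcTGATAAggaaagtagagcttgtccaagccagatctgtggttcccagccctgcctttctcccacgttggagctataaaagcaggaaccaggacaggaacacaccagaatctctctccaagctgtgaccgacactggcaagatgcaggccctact
Cma1: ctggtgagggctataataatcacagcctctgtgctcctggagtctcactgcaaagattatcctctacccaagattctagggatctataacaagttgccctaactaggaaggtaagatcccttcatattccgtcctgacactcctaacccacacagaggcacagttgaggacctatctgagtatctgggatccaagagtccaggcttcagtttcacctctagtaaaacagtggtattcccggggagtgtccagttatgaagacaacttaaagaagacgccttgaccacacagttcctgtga

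Mcpt8 lies in the chymase locus of mouse chromosome 14, which runs from Cma1 through the mast cell proteases and Ctsg to the granzymes. The locus was looked at after the members' values were seen. In RefSeq order (GRCm38.p6) it holds 15 protein-coding genes from Cma1 to Gzmb, of which 13 had a probe set. Of these, 4 passed the filter and 3 were called, Mcpt8, Ctsg and Gzmb, all higher in DKO, beside 1.08% of all tested genes. The locus was taken because it holds Mcpt8, and Gzmb passed the filter only through its DKO signals. The count is therefore a description. Mcpt8 sits between Mcpt4 and Ctsg. Ctsg, cathepsin G of myeloid granules, averaged 8328 ± 2524 in DKO and 1185 ± 995 in WT (3.06 ± 0.44, limma, adjusted p = 0.00602, and 0.0547 without DKO replicate 3). Gzmb, a granzyme of cytotoxic lymphocytes that mast cells and basophils can also make, averaged 843.3 ± 253.7 in DKO and 19.2 ± 18.6 in WT (4.72 ± 0.49, adjusted p = 8.73e-04). The mucosal mast cell chymases Mcpt1 and Mcpt2 were at the bottom of the range, at 2.0 ± 1.3 and 3.3 ± 1.1 in DKO and 6.7 ± 5.5 and 8.2 ± 8.1 in WT. Their differences were -0.30 ± 0.25 and -0.28 ± 0.28, below the filter. The granzyme genes between Ctsg and Gzmb were all below the filter too, with differences from -0.44 (Gzmg) to 0.91 (Gzmf).

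Ms4a2 lies near the end of the Ms4a cluster of chromosome 19, a family of membrane proteins with several genes in different blood cells. Of its 21 genes 17 had a probe set, 9 passed the filter and 2 were called, Ms4a2 and Ms4a4b. Both were higher in DKO, beside 1.08% of all tested genes. The cluster was taken because it holds Ms4a2, so this count too is a description. Ms4a4b, a T cell member of the family, averaged 1455 in DKO and 199.1 in WT (2.84 ± 0.38, adjusted p = 0.00390). The immediate neighbours of Ms4a2 were not called: Ms4a3, a gene of granulocyte and basophil precursors, was at 1.64 ± 0.50 (adjusted p = 0.153, and 0.0492 without DKO replicate 2), and Ms4a6d was at 0.32 ± 0.64. The B cell gene Ms4a1, which encodes CD20, was at -1.27 ± 0.76 (adjusted p = 0.484).

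**Figure D2:**
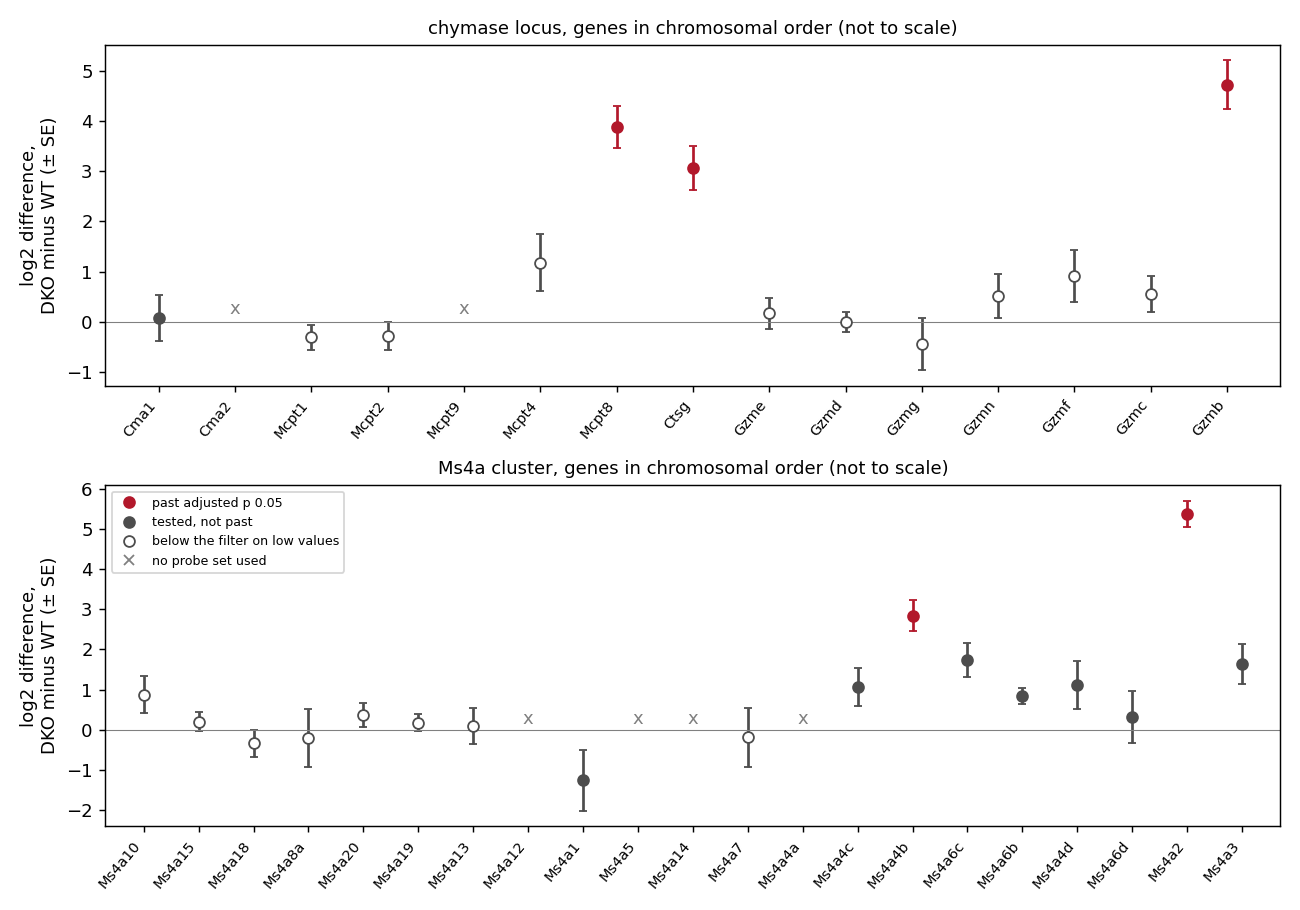
Log2 differences, DKO minus WT with SE bars, of the genes of the chymase locus (top) and of the Ms4a cluster (bottom), placed in chromosomal order and not to scale. Red points were called, open points were below the filter on low values, and crosses mark genes with no probe set used. Mcpt8, Ctsg and Gzmb stand high in the upper panel and Ms4a2 and Ms4a4b in the lower one.

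The 6 lists of related genes, with members left out, held 100 genes, of which 89 had a probe set and 74 were tested. Of these, 10 were called, all higher in DKO, which is 13.5% of those tested beside 1.08% of all genes. The lists were written with some of these results known, and a gene near the floor in WT may have been tested because of its DKO signals alone, so the share is a description. Without an intensity trend in the fit 3 were called, namely Gzmb, Lipg and Il6. All 3 passed the filter only through their DKO signals. Bhlhe40, Cebpa, Csf2rb, Csf2rb2, Alox15, Ccl9 and Ctsg were not called in that setting (limma, adjusted p = 0.0527 to 0.130). The median difference of all tested genes was -0.01.

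The signalling chain below the IgE receptor, from kinases to the fusion proteins of exocytosis, had 24 tested genes of 27 listed, and 0 were called in either direction, with 4 at an unadjusted p under 0.05. Its median was -0.09, and 10 of 24 were positive, beside 49.2% of all genes. The smallest p in it belonged to Syk, the kinase recruited by the gamma chain, at 773 ± 79 in DKO and 1225 ± 92 in WT (-0.66 ± 0.23, adjusted p = 0.215). Next was Pik3r1, a regulatory subunit of phosphoinositide kinase, at -0.37 ± 0.15 (adjusted p = 0.278). In simulated data the fit called 6% of probe sets changed by 1 on the log2 scale, and 50% of those changed by 2. The 0 calls therefore do not show that these genes were unchanged.

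Of 13 transcription factors of mast cells and basophils 2 rose and 0 fell, and the median was 0.11. The shares over all tested genes were 1.08% higher and 0.633% lower. Bhlhe40, which basophils and mast cells use for cytokine genes, averaged 1656 ± 351 in DKO and 428 ± 118 in WT (1.93 ± 0.29, limma, adjusted p = 0.00776). Cebpa, a factor of granulocyte and basophil fate, averaged 1460 ± 133 in DKO and 607 ± 50 in WT (1.24 ± 0.23, adjusted p = 0.0242). The call of Bhlhe40 was lost without DKO replicate 1 or 3, and that of Cebpa was lost whichever array was left out except WT replicate 2, and with the replicate block (adjusted p = 0.0508). Others are given as chosen after their values were seen. Gata2, which both lineages need, was at 1414 ± 432 in DKO and 1212 ± 198 in WT (0.18 ± 0.27). With the probe sets of each gene averaged, Gata2 was at 0.55 (limma, adjusted p = 0.266). Gata1 was at 443 ± 32 in DKO and 176 ± 37 in WT, with no overlap but no call (1.27 ± 0.34, adjusted p = 0.0981). In the fit that averages the probe sets of each gene, Gata1 stayed at 1.27 (limma, adjusted p = 0.0368). No further Gata1 probe set entered there, and that fit adjusted over genes and not over probe sets. Mitf, the mast cell regulator, was at -0.54 ± 0.43 (adjusted p = 0.621).

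Among cytokine receptors 2 of 12 tested genes rose and 0 fell, beside 1.08% and 0.633% of all tested genes. The median was 0.57 and 9 were positive, beside 49.2% of all tested genes. Csf2rb, the shared beta chain of the IL-3, IL-5 and GM-CSF receptors, gave 5507, 4303 and 4720 in DKO and 2132, 2495 and 1857 in WT (1.16 ± 0.19, adjusted p = 0.0117). Csf2rb2, a mouse beta chain that serves IL-3 alone, gave 2302, 1894 and 2093 in DKO and 660.1, 898.6 and 659.6 in WT (1.49 ± 0.23, adjusted p = 0.00853). The groups were separate for both, and both calls were lost without DKO replicate 1 or 3, that of Csf2rb also without WT replicate 1. Kit, the receptor for stem cell factor that mast cells keep and stem cells carry, was named after its values were seen. It gave 1968, 1827 and 1679 in DKO and 2963, 2419 and 2954 in WT, all DKO arrays below all WT arrays, and was not called (-0.60 ± 0.19, adjusted p = 0.166).

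The list of mediators and surface genes had 21 tested genes of 29 listed, with a median of 0.83. Of these, 20 were positive, beside 49.2% of all tested genes. Calls numbered 6 higher and 0 lower, beside 1.08% and 0.633% of all tested genes. Lipg, an endothelial-type lipase, gave 458.2, 761.4 and 671.4 in DKO and 1.8, 30.6 and 46.6 in WT (4.08 ± 0.51, adjusted p = 0.00269). Alox15, a lipoxygenase also high in eosinophils, averaged 7711 ± 1319 in DKO and 736 ± 660 in WT (3.70 ± 0.44, adjusted p = 0.00207). The chemokine Ccl9 averaged 3623 ± 467 in DKO and 1098 ± 358 in WT (1.75 ± 0.25, adjusted p = 0.00545). Besides Gzmb and Ctsg, the sixth call was Il6, a cytokine of many cells, named outside the rule, at 409.8, 139.6 and 240.8 in DKO and 1.5, 6.9 and 11.1 in WT (3.54 ± 0.51, adjusted p = 0.00581). Srgn, the proteoglycan core that holds granule proteases, was at 0.09 ± 0.14 and named after its value was seen. Lipg, Gzmb and Il6 passed the filter only through their DKO signals. Of these, Il6 was not tested without any 1 of the DKO arrays or with a pseudocount of 1. In the list of mucosal and other mast cell genes, 5 of 9 had a probe set and only Prss29 was tested, at 76.7 ± 7.5 in DKO and 45.3 ± 16 in WT (0.63 ± 0.45, adjusted p = 0.577). Prss29 too passed the filter only through its DKO signals.

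**Figure D3:**
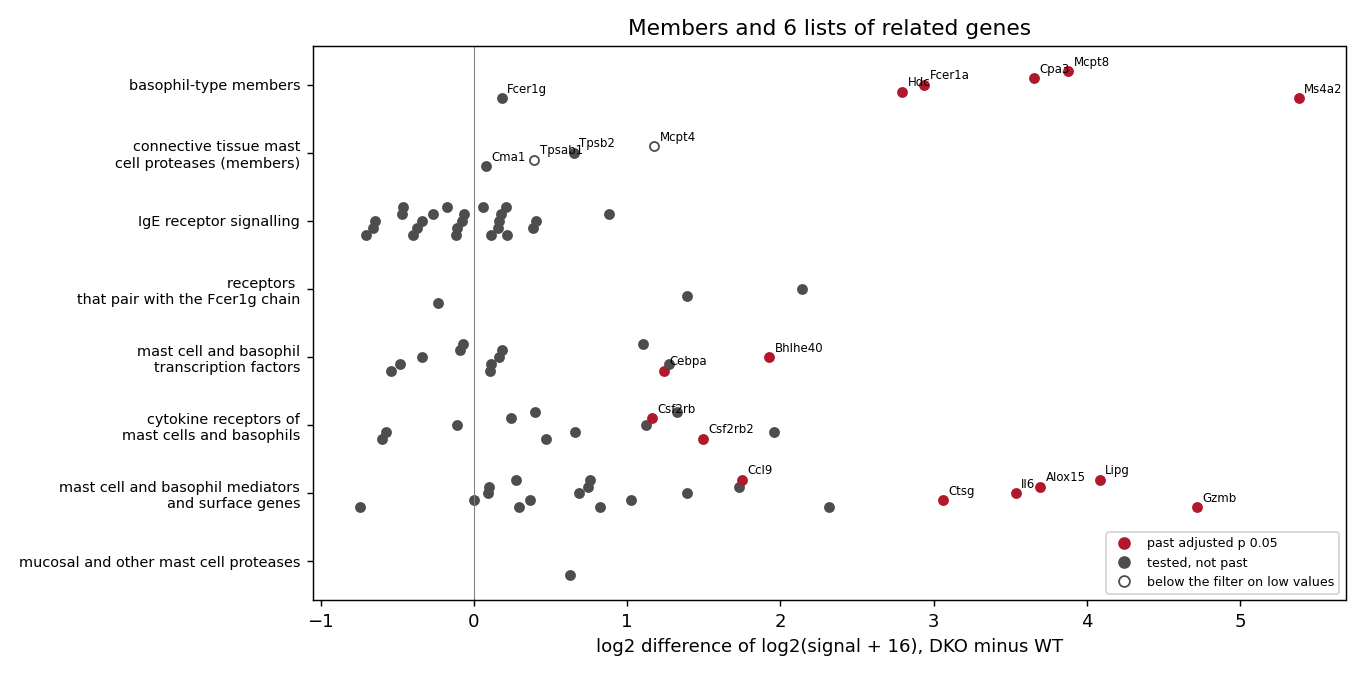
Log2 differences of log2(signal + 16), DKO minus WT, for the members at their brightest probe set (top 2 rows) and the tested genes of the 6 related lists, with 1 point per gene. Red marks calls, open points lie below the filter, and vertical spread within a row only separates points. The IgE receptor signalling genes lie on both sides of 0, while calls among receptors, transcription factors and mediators lie on the positive side.

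Over the 6 arrays, the tested genes outside the set most like Ms4a2 on the log2(signal + 16) scale were Stx3 (Pearson r = 0.999), Csf2rb2 (0.996), Csgalnact2 (0.996) and Tmem71 (0.996). Those most like Mcpt8 were Gzma (0.997), Dock5 (0.996), H2-M3 (0.993) and Csgalnact2 (0.992). The 6 points form a DKO and a WT cluster, so any gene that separates the groups cleanly scores high. Stx3, a fusion protein of granule release, averaged 4123 ± 381 in DKO and 707 ± 136 in WT.

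The level of the members was set beside markers of other cells in each array. After each gene's 6-array mean was subtracted from its log2 values, the basophil-type members averaged 1.83, 1.21 and 1.67 in DKO and -1.96, -0.83 and -1.93 in WT. WT replicate 2 was the highest WT array for 8 of the 10 members. The connective tissue proteases averaged -0.16, 0.54 and 0.48 in DKO and -0.16, -0.16 and -0.54 in WT, with DKO replicate 1 among the WT arrays.

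Eosinophil markers, of which 6 of 9 were measured, moved with the basophil-type members. Their summed signal was 25770 to 30526 in DKO and 1468 to 14037 in WT, the highest WT value in replicate 2, with no marker at 0. Of the 6, 3 rose and 0 fell, and all 6 had an unadjusted p under 0.05 by limma. Of all tested genes 1.08% were called higher and 0.633% lower, also beside the T and NK and stem cell counts below. Siglecf, a surface lectin of eosinophils, averaged 4169 ± 468 in DKO and 404 ± 103 in WT (3.34 ± 0.25, limma, adjusted p = 6.87e-05), Epx was at 3.33 ± 0.68 and Ccr3, a receptor that basophils carry too, at 3.07 ± 0.55. T and NK cell markers (8 of 10 measured) summed to 8773 to 12920 in DKO and 610 to 1447 in WT, and 6 rose. Gzma was at 4.06 ± 0.41, Thy1 at 2.36 ± 0.33, Cd3e at 3.11 ± 0.46 and Ccl5 at 2.95 ± 0.41. Stem cell markers (7 of 9 measured) summed to 13727 to 18123 in DKO and 31138 to 37619 in WT, and 6 fell, among them Mecom (-1.66 ± 0.22), Procr (-1.66 ± 0.27), Mllt3 (-1.29 ± 0.18) and Hlf (-1.33 ± 0.21). Cd3e and Ccr3 passed the filter only through their DKO signals, and Cd3e was not tested without any 1 of the DKO arrays. Over 14 alternatives the call was lost in 7 for Epx and 7 for Ccr3 (untested in 3 of these), 2 each for Hlf and Procr, 1 each for Ccl5, Mecom and Mllt3, and 0 for Siglecf, Gzma and Thy1. Ly6a, the gene of Sca1, was not analysed here.

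Neutrophil, B lineage and erythroid markers were highest in WT replicate 2, with mean levels there of 1.54, 1.58 and 2.07. The other 2 WT arrays lay between -1.51 and 0.53 for these lists, and the DKO arrays between -0.69 and 0.32. B lineage markers (7 of 8 measured) summed to 1467 to 1916 in DKO and 2171 to 8598 in WT, without overlap, and 0 of the 6 tested were positive (median -0.87). Their mean levels did overlap, with WT replicate 3 at -0.58 below DKO replicates 1 (-0.19) and 2 (-0.28). Cd79b, a chain of the B cell receptor, gave 345.4, 266.2 and 330.9 in DKO and 646.7, 1296.7 and 466.4 in WT. Erythroid markers (6 of 8 measured) summed to 3622 to 7199 in DKO and 3151 to 38760 in WT. None of the 3 lists had a call by limma, with 0, 1 and 2 genes at an unadjusted p under 0.05. The smallest p were those of Camp (-0.42 ± 0.50) and Mmp8 (-0.35 ± 0.72) for neutrophils, Cd79b (-1.19 ± 0.38) and Vpreb1 (-1.04 ± 0.49) for B cells, and Slc4a1 (-2.25 ± 0.66) and Alas2 (-1.50 ± 0.65) for erythroid cells. Without WT replicate 3, Slc4a1 was called at -3.22 (limma, adjusted p = 0.00441) and Alas2 at -2.35 (0.0417). Without WT replicate 2 the basophil-type members called were the same 5, and the differences of Ms4a2, Fcer1a, Cpa3, Mcpt8 and Hdc were 5.72, 2.79, 3.85, 4.32 and 3.41, that of Fcer1a smaller than with all arrays and the other 4 larger. The part of other cell types in the members' values was not tested.

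**Figure D4:**
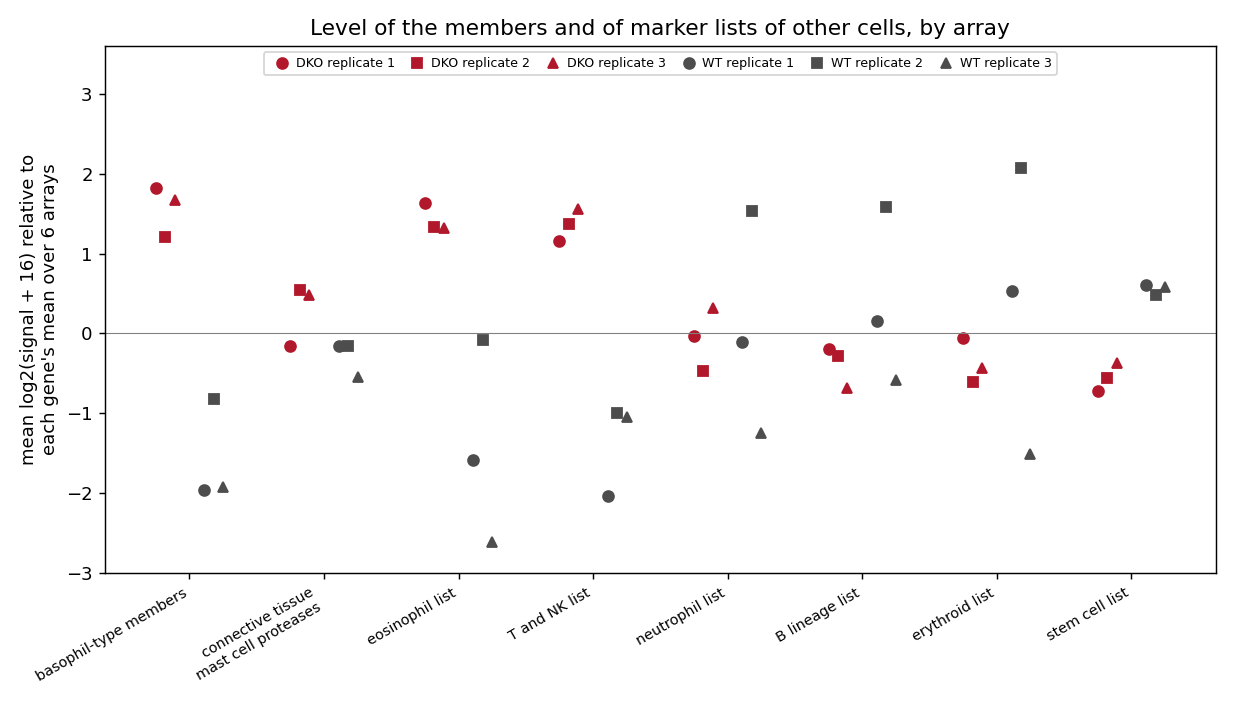
Mean of log2(signal + 16) after subtraction of the 6-array mean of each gene, for the basophil-type members, the connective tissue mast cell proteases and marker lists of other blood cells, with 1 point per array and DKO left of WT. Basophil-type members, eosinophil and T and NK markers are high in all DKO arrays, stem cell markers are high in all WT arrays, and WT replicate 2 is the highest array for neutrophil, B lineage and erythroid markers.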

How the data were processed

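RNA of sorted bone marrow cells was hybridised to 6 arrays, 3 DKO and 3 WT, each a separate pool of mice per the labels. The authors deposited linear intensity values, the MAS5 signals of each probe set on each array. The tool is named in the submitters' processing notes, with no version. The trimmed mean of each array (2% at each end) was 500, and that scaling was kept. No batch, scan date or genome build is given in the sources used here. All 6 columns were mapped by sample, and 0 belonged to other samples.

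Of 45101 probe sets 64 controls were left out. Of the 45037 others, 34945 carry a single symbol in the annotation of the platform, 932 more than 1 and 9160 none; names come from single symbols alone, of which 34741 matched RefSeq (GRCm38.p6) with 0 symbols changed. Values became log2(signal + 16), the 40% with the lowest mean were left out, and 27022 remained for the test, limma 3.58.1 under R 4.3.3 (lmFit, eBayes with an intensity trend, two-sided, no block), Benjamini-Hochberg over all of them. SE of probe sets below the filter come from the same fit without it. The brightest probe set stands for a gene, and every probe set of a member is given. On simulated data the fit called 6% of probe sets changed by 1 on the log2 scale, 50% at 2, 84% at 3 and 98% at 4.

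Members and lists were chosen with earlier results of these data known. Named are all members, Nr4a1 and Nr4a3, in each list up to 4 called genes by smallest p or else the 2 smallest p, and the 4 genes most like Ms4a2 and Mcpt8; others are said to be outside this rule. Alternatives were pseudocounts of 1 and 64, no filter, quantile normalization, median centring, no intensity trend, a replicate block, averaging the probe sets of a gene, and leaving out each array. Figures used matplotlib 3.10.9 in Python 3.11.15.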

Additional observations from a re-analysis of the deposited data

How the results depend on the processing

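Ms4a2, Cpa3 and Mcpt8 were called under all 14 alternatives. Fcer1a was not tested with a pseudocount of 1 or without any 1 of the DKO arrays. Hdc was not called with no filter (adjusted p = 0.0694), no intensity trend (0.145), the replicate block (0.0704), the mean over its probe sets (0.0735) or 4 of the 6 arrays left out (up to 0.148). Called probe sets numbered 370, and 208 with no filter, 88 without an intensity trend and 104 to 469 with an array left out. The trend also moved the called genes of the related lists, 10 of them, to 3. With an array left out these numbered 4 to 14, and called members 3 to 5. The share of called probe sets that were higher in DKO was 58.9%, with median centring 69.4%, a setting that shifts every difference by 0.11, without an intensity trend 75%, and between 56.4% (no WT replicate 3) and 77.4% (no WT replicate 1) when 1 array was dropped. The gap of 2.77 between basophil-type members and connective tissue proteases lay between 2.40 and 3.13 over its alternatives. Signs of uncalled genes turned with an array left out, for Fcer1g (-0.38 to 0.99; below 0 without DKO replicate 1, WT replicate 1 or WT replicate 3), Cma1 (-0.19 to 0.26; below 0 without DKO replicate 1 or WT replicate 3), Srgn (-0.016 to 0.17), Ms4a6d (-0.23 to 1.12), and Camp (-0.98 to 0.30) and Mmp8 (-1.11 to 0.57), the last 2 above 0 without WT replicate 2; the cause was not tested. Deviations of same-numbered arrays correlated at 0.14, -0.03 and 0.05, and 3 of 6 arrays matched their own number best. With 3 arrays a group this cannot show whether replicate numbers pair the arrays. With the replicate block 312 probe sets and 4 members were called, and Cebpa and Dock5 lost their calls (adjusted p = 0.0508 and 0.0775). Of 868 differences of 62 named genes under the alternatives, 81 lost the call or were not tested, 9 gained it, 4 of these for Cd200r3, and 9 changed sign. With 3 arrays a group and no detection calls, WT signals near the floor have no order.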

Other observations

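Some genes known from basophils and mast cells were too dim over the 6 arrays to be tested with the others. Cd200r3 and Il13 were picked out of these after their values were seen, and so was Il4, which was tested. The other untested genes of the mediator list overlapped between the groups. They were Itga2 (1.32 ± 0.68), Slc6a4 (0.66 ± 0.51) and Ltc4s (-0.05 ± 0.21). Cd200r3, an activating receptor of mouse basophils and mast cells, gave 287.8, 197.4 and 83.0 in DKO and 4.6, 1.1 and 14.7 in WT, with all DKO arrays above all WT arrays (3.07 ± 0.56, limma, adjusted p = 0.0490 when all probe sets were tested). Il13, a type 2 cytokine of basophils, mast cells and innate lymphocytes, gave 74.1, 87.3 and 88.8 in DKO and 8.2, 7.2 and 23.0 in WT (1.83 ± 0.46, adjusted p = 0.144 without the filter). Il4, a cytokine that basophils secrete, passed the filter and gave 195.3, 107.0 and 113.6 in DKO and 74.2, 35.8 and 69.8 in WT, again with no overlap (1.02 ± 0.46, adjusted p = 0.339).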
